A study of Mus musculus with 6 samples.

Results

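Aminoacyl-tRNA synthetases join each amino acid to its transfer RNA, the step that supplies charged tRNA to the ribosome. The genes described here are the synthetases of the cytosol and of mitochondria, together with Aimp1, Aimp2 and Eef1e1, the scaffold proteins that hold a group of cytosolic synthetases in one complex. Members were chosen by symbol in the platform annotation, as a capital letter followed by ars, ars1 or ars2, or as Eprs, Farsa, Farsb and the scaffold genes. That rule found 38 genes of 22296 annotated, of which 19 were cytosolic synthetases, 16 mitochondrial synthetases and 3 scaffold genes. Aimp1 and Aimp2 were annotated under the older symbols Scye1 and Jtv1, and Mars1 under Mars.

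The arrays compare 2 stable lines of OP9, a mouse bone marrow stromal cell line that lacks functional macrophage colony-stimulating factor and is used to support lymphoid progenitors. One line carried a scrambled hairpin (control shRNA) and the other a hairpin against Smoothened (Smo shRNA), the membrane protein through which Hedgehog ligands signal, both from the pLKO.1-Puro lentiviral vector. Both lines were grown below confluency with no further treatment, and total RNA of each was isolated 3 times and hybridised to 6 Affymetrix Mouse Exon 1.0 ST arrays in all. The labels do not state whether the RNA samples of a line go back to separate transductions. The p-values therefore cover variation among the RNA samples from each line, and a difference between the lines of another origin than the hairpin cannot be told apart from its effect.

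In mammals most amino acids have a cytosolic and a mitochondrial synthetase encoded by separate nuclear genes. Gars and Kars are exceptions, since each gives the enzyme of both compartments, and Eprs carries glutamate and proline activities in one chain. Several cytosolic synthetase genes are known targets of Atf4, a transcription factor raised when amino acids run short or when the endoplasmic reticulum is under stress.

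Gene values are log2 values joined over exon probe sets, differences are Smo shRNA minus control shRNA, and a gene is called when its limma p-value, adjusted over 16923 genes by the Benjamini-Hochberg method, is below 0.05. In this comparison 6537 genes (38.6%) were called, 21.2% of all genes tested higher and 17.4% lower, so a call by itself is common. Smo, the target of the hairpin, fell by 0.88 (SE 0.04, adjusted p = 1.22e-09), with all 26 of its probe sets lower. Gene values of arrays of the same line correlated at 0.996 to 0.998 and of different lines at 0.979 to 0.981, across genes, which are not independent replicates. Of 8 stromal markers all were tested, with control means from 10.43 (Col3a1) to 13.30 (Cxcl12), and 7 were lower in Smo shRNA cells. Of 9 blood cell markers 6 were tested, none was called, and their control means ran from 7.32 (Adgre1) to 8.41 (Cd79a), where the probe set filter stood at 6.56.

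Most synthetase genes that passed the test were higher in Smo shRNA cells, by small amounts. All 38 members passed the filter on dim probe sets, with 5 to 42 probe sets each. Of these 38, 22 rose, 1 fell and 15 were not called, beside 21.2% higher and 17.4% lower among all genes. The median difference of the 38 was 0.23, or 1.17-fold, beside 0.01 over all genes. In 27 members the 3 Smo shRNA arrays all lay above the 3 control shRNA arrays, and in 2 all lay below, beside 26.4% and 21.4% of all genes. No member changed 2-fold, and 3 (7.89%) were called with a change of at least 1.5-fold, beside 6.02% of all genes.

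**Figure D1:**
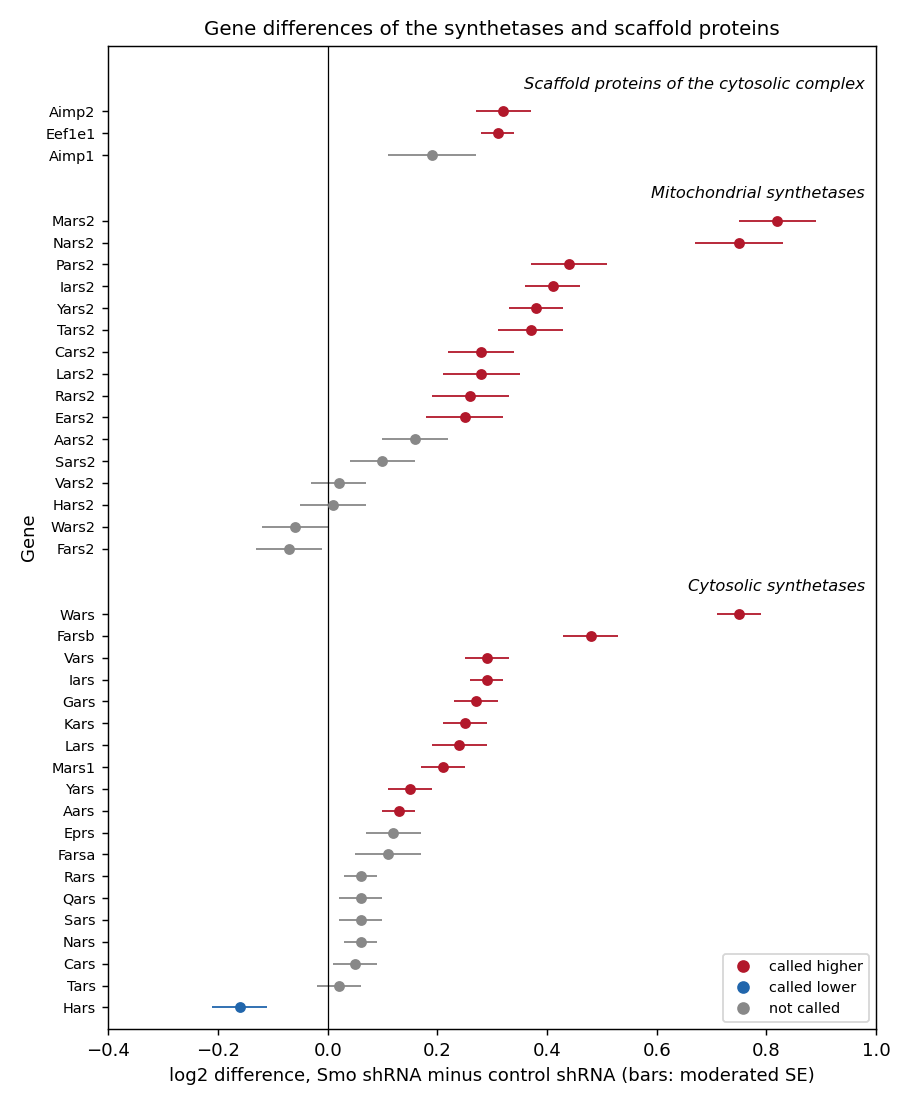
Log2 differences (Smo shRNA minus control shRNA, horizontal axis) of the 38 genes, 1 per line, grouped by class. Points are limma estimates from 3 against 3 arrays, bars are moderated SE, and colour marks the call at an adjusted p below 0.05. Mars2 (0.82), Wars (0.75) and Nars2 (0.75) lie farthest to the right, and Hars (-0.16) is the member called lower.

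Control shRNA replicate 2 read lowest of the 3 control arrays in 32 of the 38 members (84.2%), beside 54.4% of all genes tested. The median deviation of a cytosolic member from its own mean over the 6 arrays was -0.07, -0.12 and -0.04 on control replicates 1 to 3 and 0.08, 0.09 and 0.06 on Smo shRNA replicates 1 to 3. For the mitochondrial members the medians were -0.11, -0.24 and -0.06 on the control arrays and 0.10, 0.12 and 0.16 on the Smo shRNA arrays. Both classes thus stood lower on each control array than on each Smo shRNA array. Without control replicate 2, 9 cytosolic members were called higher and 1 lower, and 9 mitochondrial members were called higher. Of all 16923 genes, 2757 were called higher and 2786 lower in that fit.

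Among the 19 cytosolic synthetases 10 rose (Wars, Farsb, Vars, Iars, Gars, Kars, Lars, Mars1, Yars and Aars), 1 fell (Hars) and 8 were not called, beside 21.2% higher and 17.4% lower among all genes. Their median difference was 0.13, or 1.10-fold, and they ranged from -0.16 (Hars) to 0.75 (Wars). When any 1 array was left out, 8 to 10 of them rose and at most 1 fell.

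Wars, the tryptophan enzyme, whose gene is also known as a target of interferon gamma, read 11.25, 11.10 and 11.24 on control replicates 1 to 3 and 11.95, 11.92 and 11.96 on Smo shRNA replicates 1 to 3, the order used for each gene from here on. The 3 Smo shRNA arrays agreed within 0.04 and stood far above the controls. The gene was 1.68-fold higher (log2 difference 0.75, SE 0.04, adjusted p = 1.51e-08), from 11.20 ± 0.08 to 11.95 ± 0.02 (SD, n = 3), and 14 of its 15 probe sets were called higher. Wars lies on chromosome 12, where the median difference over 573 tested genes was 0.16 and 46.9% of genes were called higher and 4.71% lower. The part of this shift of the chromosome in the Wars value was not tested.

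Farsb encodes the beta subunit of the phenylalanine enzyme, which is built from alpha and beta chains. It read 10.60, 10.48 and 10.65 in control cells and 11.08, 11.05 and 11.04 in Smo shRNA cells, a 1.40-fold rise (0.48, SE 0.05, adjusted p = 3.85e-06). Its 3 Smo shRNA arrays were closely grouped and above every control array. Farsa, the gene of the alpha subunit, read 10.23, 10.26 and 10.30 against 10.48, 10.38 and 10.26, so that its groups overlapped, and its difference of 0.11 (SE 0.06, adjusted p = 0.171) was not called. The difference between the changes of the subunit genes was not tested.

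Iars, the isoleucine enzyme of the complex, read 12.39, 12.40 and 12.43 in control cells and 12.68, 12.70 and 12.72 in Smo shRNA cells. Its replicates lay within 0.04 of each other in both groups, and the gene was 1.22-fold higher (0.29, SE 0.03, adjusted p = 1.5e-06), with 34 of 37 probe sets called higher. Vars, the valine enzyme, read 11.44, 11.43 and 11.43 against 11.77, 11.75 and 11.65 and rose to the same extent (0.29, SE 0.04, adjusted p = 5.07e-05). Smo shRNA replicate 3 was the lowest of its group for Vars and still above all controls.

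Gars and Kars, the glycine and lysine enzymes that serve the cytosol and mitochondria from one gene, both rose. Gars read 11.60, 11.48 and 11.60 in control cells and 11.83, 11.84 and 11.81 in Smo shRNA cells (1.20-fold, 0.27, SE 0.04, adjusted p = 9.58e-05). Kars read 11.19, 11.10 and 11.23 against 11.41, 11.44 and 11.42 (1.19-fold, 0.25, SE 0.04, adjusted p = 0.000279). For both genes control replicate 2 was the lowest array and the groups did not overlap. No probe set was assigned to one or the other compartment, so the values are of the gene as a whole.

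The other called cytosolic members changed less. Lars, the leucine enzyme, rose by 0.24 (SE 0.05, adjusted p = 0.00109), Mars1, the methionine enzyme, by 0.21 (SE 0.04, adjusted p = 0.000593), Yars, the tyrosine enzyme, by 0.15 (SE 0.04, adjusted p = 0.0137) and Aars, the alanine enzyme, by 0.13 (SE 0.03, adjusted p = 0.00396). Lars and Aars were not called without control replicate 1 (0.22, adjusted p = 0.0605, and 0.10, adjusted p = 0.0733), nor was Aars with the mean of probe sets (0.09, adjusted p = 0.133). Yars was not called without control replicate 2 (0.13), control replicate 3 (0.15), Smo shRNA replicate 1 (0.11) or Smo shRNA replicate 2 (0.11), with adjusted p from 0.0695 to 0.175 in these fits, nor without a variance trend (adjusted p = 0.0714).

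Hars, the histidine enzyme, was the member that fell. It read 11.38, 11.26 and 11.38 in control cells and 11.23, 11.14 and 11.16 in Smo shRNA cells (1.12-fold lower, -0.16, SE 0.05, adjusted p = 0.0111). The highest Smo shRNA array and the lowest control array lay 0.03 apart. Of its 20 probe sets 19 were lower, 8 of them called, and none was called higher. The call was lost without control replicate 1 (-0.13, adjusted p = 0.123), control replicate 3 (-0.13, adjusted p = 0.125) or Smo shRNA replicate 3 (-0.17, adjusted p = 0.0514). Hars2, the mitochondrial histidine enzyme, differed by 0.01 (SE 0.06, adjusted p = 0.903), with groups that overlapped.

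**Figure D2:**
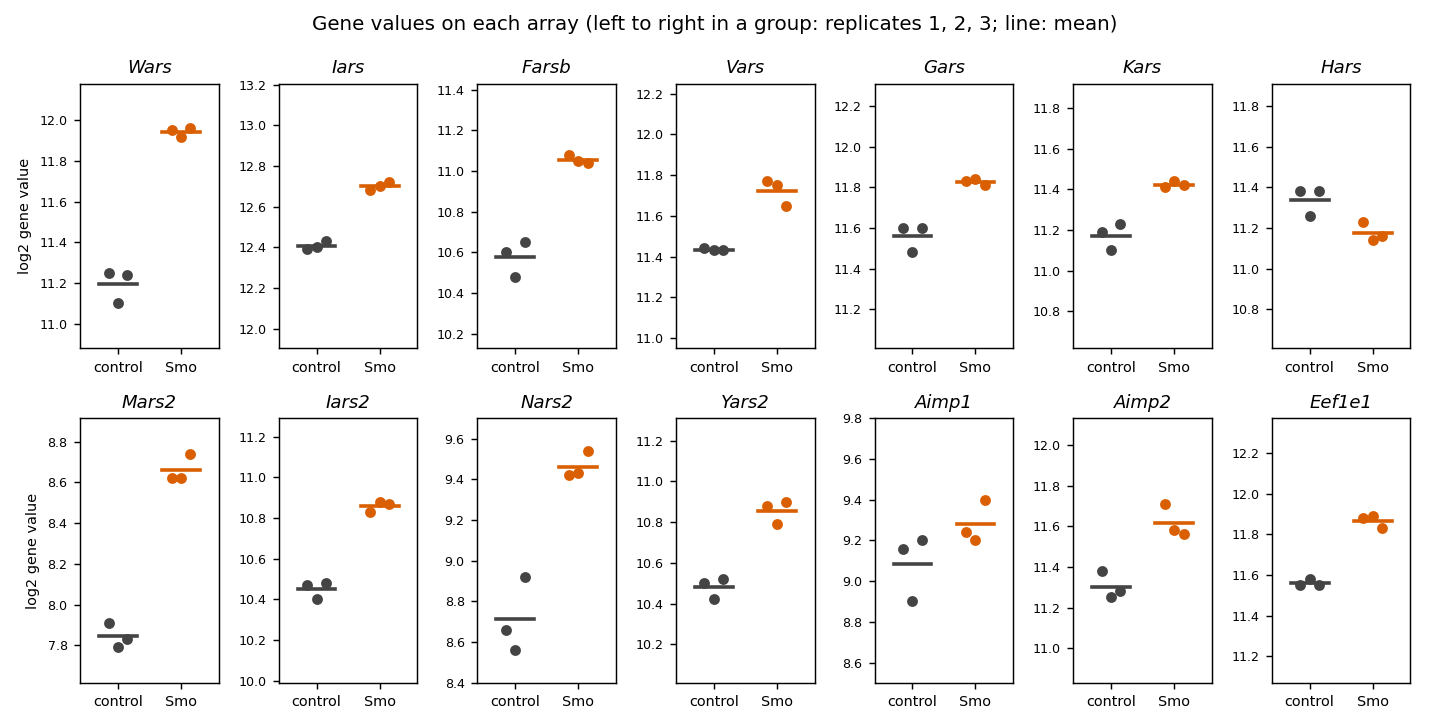
Log2 gene values (vertical axis, the same span in each panel) on the 3 control shRNA arrays (grey) and the 3 Smo shRNA arrays (orange) of 14 genes, with the group mean as a line. Points run left to right from replicate 1 to 3. The groups do not overlap in any of these genes, Hars being lower in Smo shRNA cells and the other 13 higher, of which Aimp1 was not called. Most of the genes shown were picked by smallest adjusted p, which favours groups that do not overlap. Of all genes tested, 26.4% were higher without overlap and 21.4% lower without overlap.

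The 8 cytosolic members that were not called had differences between 0.02 and 0.12. They were Eprs (0.12, adjusted p = 0.0591), Farsa, Nars (0.06), Rars (0.06), Sars (0.06), Qars (0.06), Cars (0.05) and Tars (0.02), the enzymes of glutamate and proline, phenylalanine, asparagine, arginine, serine, glutamine, cysteine and threonine. The arrays of Eprs, Nars and Rars did not overlap between the groups, those of the other 5 did. Of all genes tested, 26.4% were higher without overlap and 21.4% lower without overlap. Eprs lay close to the threshold and was called without control replicate 3 (0.13, adjusted p = 0.0385), whereas its difference was 0.06 (adjusted p = 0.22) without control replicate 2 and it was not called without any of the other 4 arrays (0.10 to 0.13, adjusted p from 0.0968 to 0.208). SE ran from 0.03 to 0.06 over the 19 cytosolic members, and a p that missed the threshold does not show that these genes did not differ.

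In the multisynthetase complex, the assembly that the scaffold proteins hold together, 4 of the 7 tested enzymes rose (Iars, Kars, Lars and Mars1), 0 fell and Eprs, Qars and Rars were not called. Of the 12 cytosolic enzymes outside the complex 6 rose and 1 fell, and of all genes 21.2% rose and 17.4% fell. The median difference was 0.21 for the 7 enzymes of the complex and 0.12 for the 12 others. The difference between these medians was not tested.

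Of the 3 scaffold genes of the complex 2 rose and 0 fell, beside 21.2% higher and 17.4% lower among all genes. Eef1e1, also called AIMP3, read 11.55, 11.58 and 11.55 in control cells and 11.88, 11.89 and 11.83 in Smo shRNA cells (1.24-fold, 0.31, SE 0.03, adjusted p = 8.03e-06). Aimp2, on which assembly of the complex depends, read 11.38, 11.25 and 11.28 against 11.71, 11.58 and 11.56 (1.24-fold, 0.32, SE 0.05, adjusted p = 0.000135). All 6 probe sets of each gene were called higher. Aimp1, which is also the precursor of a secreted cytokine, read 9.16, 8.90 and 9.20 against 9.24, 9.20 and 9.40, a difference of 0.19 (SE 0.08, adjusted p = 0.086) that was not called. Leaving out Smo shRNA replicate 3 gave Aimp1 a difference of 0.05, and leaving out control replicate 2 gave 0.09. Its groups did not overlap, although the highest control array and the lowest Smo shRNA array both read 9.20 at the precision printed.

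Promoter sequence was examined because several cytosolic genes moved together and belong to a family with known Atf4 targets. Windows from 250 bases before to 50 after a start were taken from RefSeq (GRCm38.p6) and matched by symbol to 29 of the 38 members, 12 of them cytosolic and 14 mitochondrial. No window was matched to Cars, Hars, Hars2, Lars, Nars, Pars2, Rars, Vars or Wars, so the promoters of these members were not searched. The C/EBP-ATF response element, searched as TGATGNAA on both strands, was found in 5 of the 12 cytosolic windows (Aars, Gars, Iars, Tars and Yars), beside 3.97% of 32817 windows of all genes and 2.48% of 16554 windows of the genes tested. It was found in 0 of 15 mitochondrial and 0 of 4 scaffold windows. A match in each of the 5 genes is shown, within 30 bases read 5′ to 3′ on the strand of the gene, with the match in capitals. A match on the opposite strand reads TTNCATCA.
Aars, bases 10 to 17 of the transcript, chr8:111033840-111033869, plus strand: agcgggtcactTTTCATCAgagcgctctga
Gars, 30 to 23 bases before the start, chr6:55037960-55037989, plus strand: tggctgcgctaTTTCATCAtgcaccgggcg
Iars, bases 8 to 15 of the transcript, chr13:49682126-49682155, plus strand: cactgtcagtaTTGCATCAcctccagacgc
Tars, 15 to 8 bases before the start, chr15:11399655-11399684, minus strand: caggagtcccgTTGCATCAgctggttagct
Yars, bases 4 to 11 of the transcript, chr4:129189895-129189924, plus strand: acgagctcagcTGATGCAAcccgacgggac

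Of the 5 cytosolic genes with this match, 4 rose and Tars was not called, with a median difference of 0.15. Of the 7 whose window did not hold these letters, 3 rose (Farsb, Kars and Mars1) and 4 were not called, with a median of 0.12. Of all genes tested 21.2% rose and 17.4% fell. The difference between these small groups was not tested. A match to the E-box CACGTG, a palindrome bound by factors that include Myc, was found in 4 of the 12 cytosolic windows (Aars, Farsb, Iars and Tars), in 1 of 15 mitochondrial windows (Ears2), in 7.15% of all windows and in 9.1% of the windows of genes tested. Of those 4 cytosolic genes 3 rose, and of the 8 without the match 4 rose, again beside 21.2% of all genes and without a test. The E-box matches in the genes with larger changes are shown in the same way.
Farsb, 39 to 34 bases before the start, chr1:78488919-78488948, minus strand: ttagacaggcatCACGTGagacagcccaag
Iars, 69 to 64 bases before the start, chr13:49682049-49682078, plus strand: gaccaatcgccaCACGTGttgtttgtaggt
No match overlapped a match to another motif. The Gli motif GACCACCCA, for the transcription factors of the Hedgehog pathway, was in 0 of the 31 member windows and in 0.253% of all windows. A match describes letters and does not show binding.

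Among the 16 mitochondrial synthetases 10 rose (Mars2, Nars2, Pars2, Iars2, Yars2, Tars2, Cars2, Lars2, Rars2 and Ears2), 0 fell and 6 were not called, beside 21.2% higher and 17.4% lower among all genes. Their median difference was 0.27, or 1.20-fold, with a range from -0.07 (Fars2) to 0.82 (Mars2). When any 1 array was left out, 7 to 9 of them rose and 0 fell.

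Mars2, the mitochondrial methionine enzyme, had the largest difference of all members. It read 7.91, 7.79 and 7.83 in control cells and 8.62, 8.62 and 8.74 in Smo shRNA cells, a 1.76-fold rise (0.82, SE 0.07, adjusted p = 5.77e-07). All 3 Smo shRNA arrays lay well above the controls. The gene value rests on 5 probe sets, the fewest of any member, of which 4 were called higher, with differences from 0.21 to 1.18. Its control mean of 7.84 ± 0.06 (SD, n = 3) was the nearest of all members to the filter at 6.56, where hybridisation folds can understate a change. That mean lay within the control means of the blood cell markers, from 7.32 (Adgre1) to 8.41 (Cd79a), and no detection call was used.

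Nars2, the mitochondrial asparagine enzyme, read 8.66, 8.56 and 8.92 in control cells and 9.42, 9.43 and 9.54 in Smo shRNA cells (1.68-fold, 0.75, SE 0.08, adjusted p = 8.1e-06). Its control arrays spread more than those of the other members (SD 0.19, n = 3), yet the groups stood 0.50 apart at their nearest arrays. All 17 of its probe sets were higher and 14 were called. Nars, its cytosolic counterpart, differed by 0.06 (SE 0.03, adjusted p = 0.104), and its probe sets included 1 called higher (0.28) and 1 called lower (-0.49).

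Iars2, the mitochondrial isoleucine enzyme, read 10.47, 10.40 and 10.48 against 10.83, 10.88 and 10.87 (1.33-fold, 0.41, SE 0.05, adjusted p = 6.73e-06), and all 32 of its probe sets were higher, 26 of them called. Yars2, the mitochondrial tyrosine enzyme, read 10.50, 10.42 and 10.52 against 10.88, 10.79 and 10.90 (1.30-fold, 0.38, SE 0.05, adjusted p = 2.67e-05). In both genes each group was tight and the nearest arrays of the groups were well apart.

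Pars2, the mitochondrial proline enzyme, rose by 0.44 (SE 0.07, adjusted p = 0.000277) and Tars2, that of threonine, by 0.37 (SE 0.06, adjusted p = 0.000145), with all of their 7 and 25 probe sets higher. Without control replicate 2 the Pars2 difference was 0.29 (adjusted p = 0.0432). The control mean of Pars2, 8.16, also lay within those of the blood cell markers, from 7.32 (Adgre1) to 8.41 (Cd79a). Cars2, the cysteine enzyme, and Lars2, the leucine enzyme, each rose by 0.28 (adjusted p = 0.00138 and 0.00402), Rars2, the arginine enzyme, by 0.26 (adjusted p = 0.00699) and Ears2, the glutamate enzyme, by 0.25 (adjusted p = 0.0133). The last 3 of these lost their call in 4 of the 6 refits on 5 arrays. Lars2 was not called without control replicate 3 (0.26) or any of the 3 Smo shRNA replicates (0.27, 0.22 and 0.21). Rars2 was not called without control replicate 1 (0.27) or any of the 3 Smo shRNA replicates (0.26, 0.30 and 0.23). Ears2 was not called without control replicates 1 (0.17) or 2 (0.20) or Smo shRNA replicates 2 (0.22) or 3 (0.19).

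The 6 mitochondrial members not called were Aars2 (0.16, adjusted p = 0.0561), Sars2 (0.10), Vars2 (0.02), Hars2 (0.01), Wars2 (-0.06) and Fars2 (-0.07), the enzymes of alanine, serine, valine, histidine, tryptophan and phenylalanine. Fars2 read 8.86, 8.86 and 8.88 in control cells and 8.82, 8.74 and 8.82 in Smo shRNA cells, with no overlap, and its adjusted p was 0.409. Vars2 had 22 probe sets above 0 and 14 below, with none called in either direction.

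**Figure D3:**
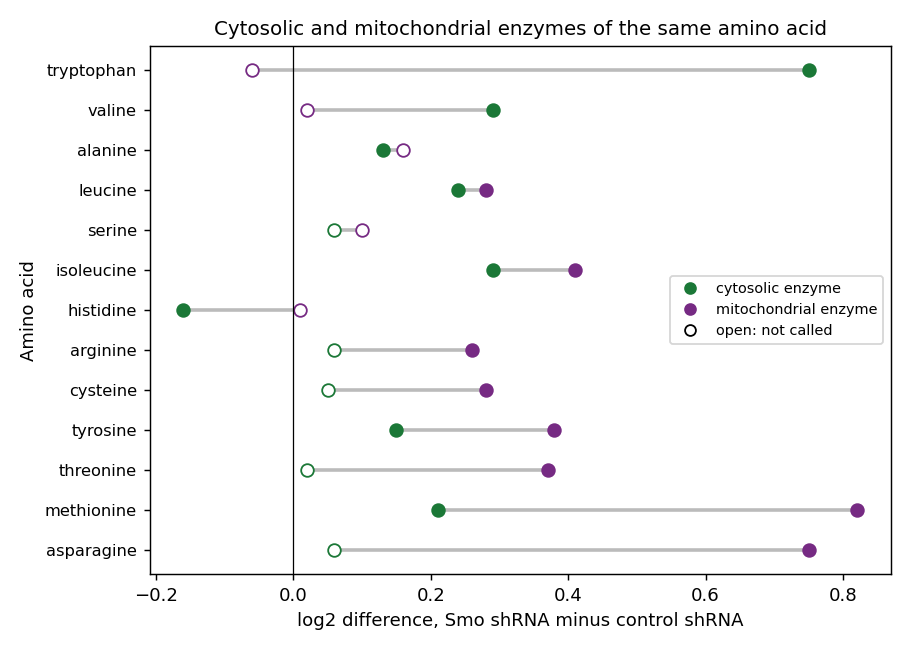
Log2 differences (Smo shRNA minus control shRNA, horizontal axis) of the cytosolic (green) and mitochondrial (purple) enzyme of each of 13 amino acids, joined by a line. Filled points were called at an adjusted p below 0.05 and open points were not. The cytosolic point lies to the right for tryptophan (0.75 against -0.06) and valine (0.29 against 0.02), and the mitochondrial point lies to the right for the other 11 amino acids. For alanine, leucine and serine the points of a pair nearly coincide.

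Set side by side, 10 of 19 cytosolic and 10 of 16 mitochondrial members rose, beside 21.2% higher and 17.4% lower among all genes. The median of the cytosolic members was 0.14 below that of the mitochondrial members on the log2 scale. The difference between the classes was -0.06 without Smo shRNA replicate 3 and between -0.17 and -0.10 without each of the other arrays. It was not tested, since members of a class are not replicates of a condition. The classes also differed in signal level. Control means ran from 10.26 (Farsa) to 13.22 (Nars) in the cytosolic class and from 7.84 (Mars2) to 10.48 (Yars2) in the mitochondrial class. The part of signal level in the difference between the classes was not tested. For 13 amino acids the cytosolic and the mitochondrial enzyme each had 1 gene of its own, and both genes were tested. The mitochondrial difference was the larger for 11 of them and the cytosolic difference for 2, tryptophan and valine. For alanine, leucine and serine the cytosolic minus the mitochondrial difference was only -0.03, -0.04 and -0.04. The order turned for alanine without control replicate 2 (0.10 for Aars, 0.09 for Aars2). It also turned for leucine without Smo shRNA replicate 3 (0.23 for Lars, 0.21 for Lars2). The gaps between paired enzymes were not tested. Both enzymes rose for 4 amino acids, isoleucine, leucine, methionine and tyrosine, and none had enzymes called in opposite directions. The widest gaps were those of tryptophan (0.75 for Wars, -0.06 for Wars2), asparagine (0.06 for Nars, 0.75 for Nars2) and methionine (0.21 for Mars1, 0.82 for Mars2). Phenylalanine, whose cytosolic enzyme has an alpha and a beta gene, was not among the 13 (0.11 for Farsa, 0.48 for Farsb, -0.07 for Fars2). Glutamate and proline, which share Eprs, were left out as well (0.12 for Eprs, 0.25 for Ears2, 0.44 for Pars2). Moderated SE had a median of 0.04 in the cytosolic and 0.06 in the mitochondrial class, so a difference of a given size was called more readily in the cytosolic class.

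At the level of single exons, the 38 genes held 807 probe sets above the filter, of which 680 were higher and 127 lower in Smo shRNA cells. Tested one by one and adjusted over 245574 probe sets, 310 were called higher (38.4%) and 9 lower (1.12%), beside 17.5% and 12.4% of these 245574 probe sets. Of the 9 called lower, 8 belonged to Hars and 1 to Nars. Cytosolic genes had 189 of 487 called higher (38.8%), mitochondrial genes 108 of 297 (36.4%) and scaffold genes 13 of 23 (56.5%). Probe sets of a gene share their RNA and are not independent.

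**Figure D4:**
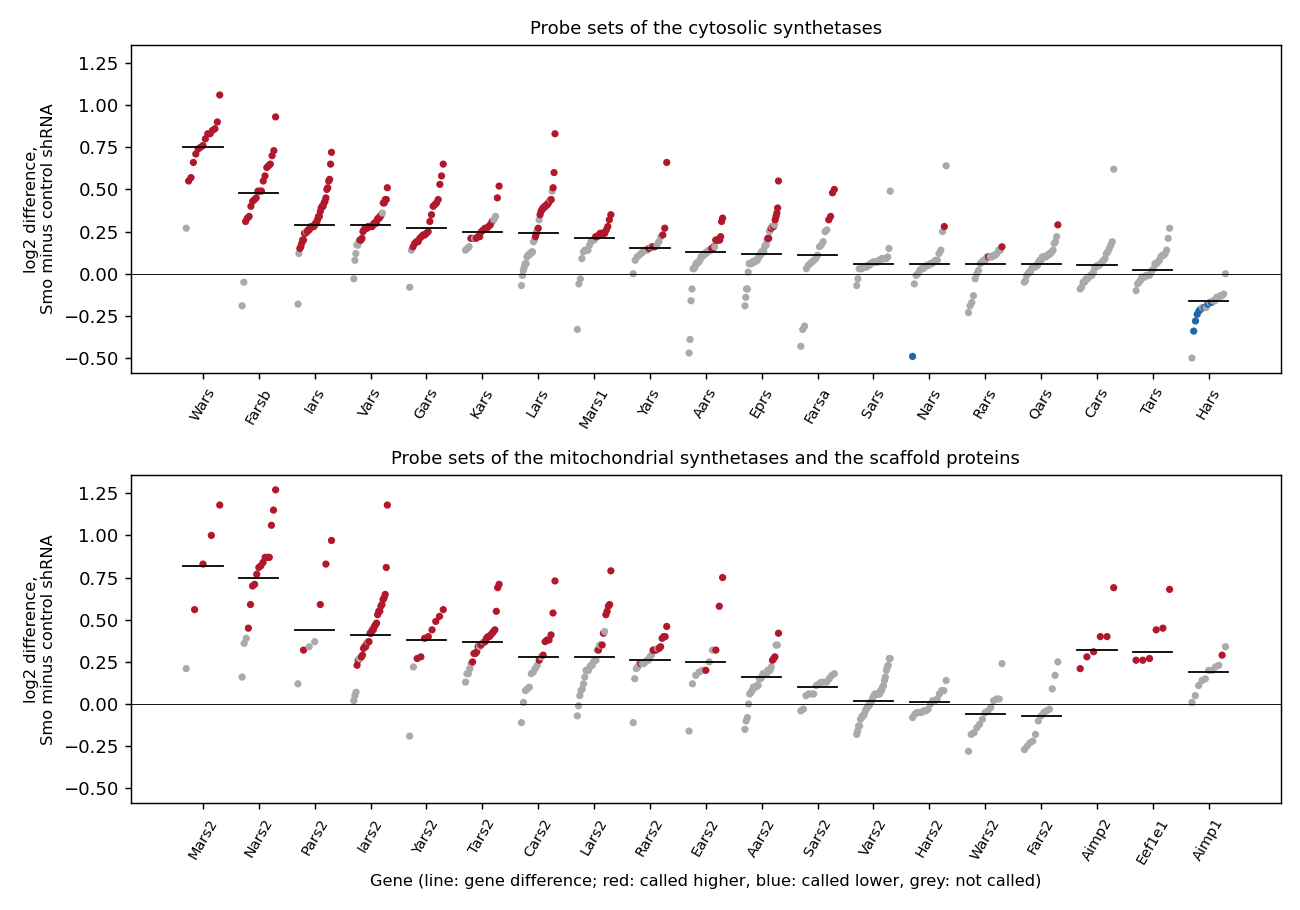
Log2 differences (Smo shRNA minus control shRNA, vertical axis) of the 807 probe sets, 1 point each, by gene, with the gene difference as a black line. Red points were called higher and blue points lower at an adjusted p below 0.05. All 15 points of Wars and all 17 of Nars2 lie above 0, and 19 of 20 points of Hars lie below 0.

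In some genes single probe sets stood away from the rest. Iars had 1 probe set at -0.18 among 36 that were higher, and Farsb had 2 below 0, down to -0.19, among 18 called higher. Aars ranged from -0.47 to 0.33 over 35 probe sets, none of the lower ones called. Values of dim probe sets carry the most error, and exon usage was not tested here.

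Other genes of tRNA charging rose more often than they fell. Of 10 tested genes for charging, proofreading and tRNA transport, 5 rose, 1 fell and 4 were not called, with a median of 0.21, beside 21.2% higher and 17.4% lower among all genes. Xpot, which exports tRNA from the nucleus, rose by 0.61 (SE 0.05, adjusted p = 2.48e-07), from 10.78, 10.69 and 10.81 to 11.33, 11.44 and 11.35. Tarsl2, a second threonine enzyme, rose by 0.40 (adjusted p = 0.00036) and Dtd1, which removes D-amino acids from tRNA, by 0.31 (adjusted p = 0.000477). Ankrd16, a cofactor that lowers mischarging by the alanine enzyme, fell by 0.44 (SE 0.08, adjusted p = 0.000357).

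Among 13 genes of mitochondrial charging and translation 6 rose, 2 fell and 5 were not called, with a median of 0.18. The share that fell was near the 17.4% of all genes called lower, and 21.2% of all genes were called higher. The largest change was a fall of Gatb, a subunit of the amidotransferase that makes glutaminyl-tRNA in mitochondria from the glutamate-charged form. It read 10.95, 10.92 and 10.91 in control cells and 10.03, 9.91 and 9.74 in Smo shRNA cells, 2.05-fold lower (-1.03, SE 0.06, adjusted p = 3.03e-08). Gatc, another subunit of that enzyme, rose by 0.36 (SE 0.05, adjusted p = 8.58e-05), and Qrsl1, which carries its catalytic activity, differed by 0.13 (adjusted p = 0.137). Subunits of one enzyme thus had differences of opposite sign. The elongation factors Tsfm and Gfm1 rose by 0.41 (adjusted p = 5.78e-05) and 0.43 (adjusted p = 0.00062). Of 7 cytosolic elongation genes 2 rose, Eif5a (0.13, adjusted p = 0.00124) and Eef1d (0.13, adjusted p = 0.0136), and 0 fell, beside 21.2% higher and 17.4% lower among all genes, with a median of 0.02.

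Atf4 itself, whose mRNA is regulated largely at translation, rose by 0.19 (SE 0.03, adjusted p = 0.000542), from 12.98, 12.86 and 12.92 to 13.18, 13.09 and 13.07. Of 22 known Atf4 targets outside the synthetases 15 rose, 1 fell and 6 were not called, beside 21.2% higher and 17.4% lower among all genes, with a median of 0.30. Slc7a11, the cystine transporter, was 2.63-fold higher (1.40, SE 0.06, adjusted p = 7.18e-10), Trib3, a pseudokinase, 1.68-fold (0.75, adjusted p = 2.62e-07) and Shmt2, a mitochondrial serine hydroxymethyltransferase, 1.50-fold (0.59, adjusted p = 6.12e-10). Nupr1, a stress protein, fell by 0.62 (SE 0.04, adjusted p = 2.07e-08).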

How the data were processed

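Exon probe set values were deposited by the authors as log2 values for 6 arrays (3 control shRNA, 3 Smo shRNA). The log2 scale was inferred from a range of 0 to 15.14, with array medians between 6.56 and 6.59. How probe sets were summarised, background-corrected and normalized is not given in the labels or the file, and no detection call was used. In 20744 rows all arrays read 0, and none of these had a gene name. Of 1256831 probe sets, 318760 had 1 symbol, 6684 several and 931387 none. Of 22296 symbols, 3993 were updated through RefSeq (GRCm38.p6) and 297 kept an older name.

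Probe sets with a mean at or above the median (6.56) were kept (245574), and genes with at least 3 were joined by Tukey median polish. Groups were compared over all 16923 genes with limma 3.58.1 in R 4.3.3, two-sided, with a variance trend, without a replicate block, and with Benjamini-Hochberg adjusted p-values called below 0.05. The number of arrays limits the precision. At most 0.0237% of values were identical between any pair of arrays.

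The members and gene lists were chosen with earlier results of these data known. Genes named in full are the 6 cytosolic and 4 mitochondrial members with the smallest adjusted p, the scaffold genes, Gars, Kars and called members against the direction of their class, and of other lists up to 4 called genes with the smallest adjusted p. Motifs were chosen after the values were seen. Alternatives were the probe set filter, the summary, the minimum of probe sets, normalization, the variance trend, the block and leaving out arrays. The calculation was tested on simulated data.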

Additional observations from a re-analysis of the deposited data

How the results depend on the processing

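Of the 23 called members, 16 kept their call in all 16 alternatives (15 for Wars, which the fit without chromosomes 11 and 12 leaves out) and 7 (Aars, Ears2, Hars, Lars, Lars2, Rars2 and Yars) lost it in at least 1, with no change of sign. Of the 15 not called, Aars2, Aimp1 and Eprs were called in some. The sign turned for Hars2 without control shRNA replicate 2 (-0.04, with a range from -0.04 to 0.06 over the fits that leave out 1 array) and for Wars2 without control shRNA replicate 3 (0.01, range -0.12 to 0.01), neither being called. Without 1 array, cytosolic members called ran from 8 to 10 higher and 0 to 1 lower, mitochondrial members from 7 to 9 higher, the difference between class medians from -0.17 to -0.06, all genes from 2672 to 2918 higher and 2089 to 2786 lower, and member probe sets from 230 to 297 higher and 4 to 10 lower. Without a variance trend, 205 member probe sets were called higher and 3 lower, against 310 and 9, and the cause was not tested. Same-numbered arrays of the groups had deviations that correlated at 0.08, 0.10 and 0.39 across genes, beside -0.37 to 0.31 for arrays of different numbers, and not every pair passed 0.1, so the numbers were not taken as pairs. With the replicate block Aimp1 (adjusted p = 0.022) and Eprs (adjusted p = 0.0495) were called, 11 cytosolic members were called higher and 1 lower, and 10 mitochondrial members higher. Of all 16923 genes, the fit with the block called 3796 higher and 3143 lower. Median polish with more rounds and the fit without chromosomes 11 and 12 were chosen after seeing the data. The number of arrays, 3 in each group, limits the precision of every value.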
